A study of Mus musculus with 15 samples.

Results

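Mouse embryo sections at embryonic day 11 (E11) were barcoded in tissue at 2 pixel widths, and the sections with 10 µm pixels were compared with those with 25 µm pixels. In this method, DNA barcodes enter the tissue in narrow parallel channels, once along the section and once across it, and each crossing of channels makes a pixel that carries a unique pair of barcodes. These were 4 of the 11 transcript libraries of the series, chosen by stage and pixel width: 2 sections at 10 µm and 2 at 25 µm. The 10 µm sections are called field 1 and field 2 here, and the others 25 µm section 1 and 25 µm section 2, by the numbers in their titles. Pixels counted as tissue if they held 0.1 or more of the total found at the 95th percentile of the section's pixels, which left 1636 and 1930 pixels in fields 1 and 2 and 1704 and 1504 in the 25 µm sections. The grid was the same at both widths, so a 10 µm grid covered a much smaller piece of the embryo.

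All 4 were frozen sections of E11 embryos that the labels give no treatment or genotype for; strain and sex are not given either. The labels do not name the region of the embryo that a section covers, nor say whether 2 sections came from separate embryos. P-values therefore measure only the spread between sections, which may be partly technical. The fit shared this spread over all transcript libraries of the series, so it rests partly on sections outside the E11 set. Pixel width, region, embryo and library cannot be told apart as sources of a difference. In tissue summed over many pixels, fewer cells of a type and less RNA per cell cannot be told apart.

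At E11 the main organs have begun to form side by side. The heart tube has looped and beats, the liver bud secretes plasma proteins and takes up blood-forming cells, and the neural tube holds dividing progenitors next to newly born neurons. Hox genes, which encode transcription factors in 4 clusters, give cells their position along the body: genes at the low-numbered end of a cluster are active from the hindbrain backwards, those at the high-numbered end only towards the tail, and the forebrain and midbrain in front of them express none.

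Protein-coding counts of tissue pixels were summed per library, leaving out columns for pseudogenes. Libraries held 2201692 to 6884798 such counts, with medians of 1239 and 1128.5 counts per pixel in fields 1 and 2 and 2530.5 and 4343.5 in the 25 µm sections. Pseudogene columns took 12.6% and 14.2% of all counts in the fields and 9.73% and 9.20% in the 25 µm sections. Row and column of the grid explained 43.6% to 73.7% of the variance of log2 pixel totals, the most in field 2. Levels are given as CPM, the count per 1000000 protein-coding counts of the library's tissue, and as the sum of CPM over a list of genes for an organ program. Intervals are exact binomial 95% intervals from the counts alone, so they cover counting error only and no spread between sections. Collapsing of duplicate molecules is not given in the sources used here, so counting error may be larger than they show.

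In their organ programs the fields differed from each other more than the 25 µm sections did. Of 25 organ programs, 17 had summed levels more than 2 times apart between the fields, 9 more than 5 times and 3 more than 10 times. Between the 25 µm sections 2 programs were more than 2 times apart and none more than 5 times, with epithelium the farthest at 2.05 times. Across all 14576 genes tested, the log2 difference between the fields had an SD of 1.30, against 0.71 between the 25 µm sections, which were sequenced more deeply, and 0.74 between the means of the 2 widths. Among genes with at least 100 counts over a pair the median absolute log2 ratio was smaller between the fields, 0.349, than between the 25 µm sections, 0.462, so the fields stood apart in a limited set of genes and not in the typical gene.

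**Figure D1:**
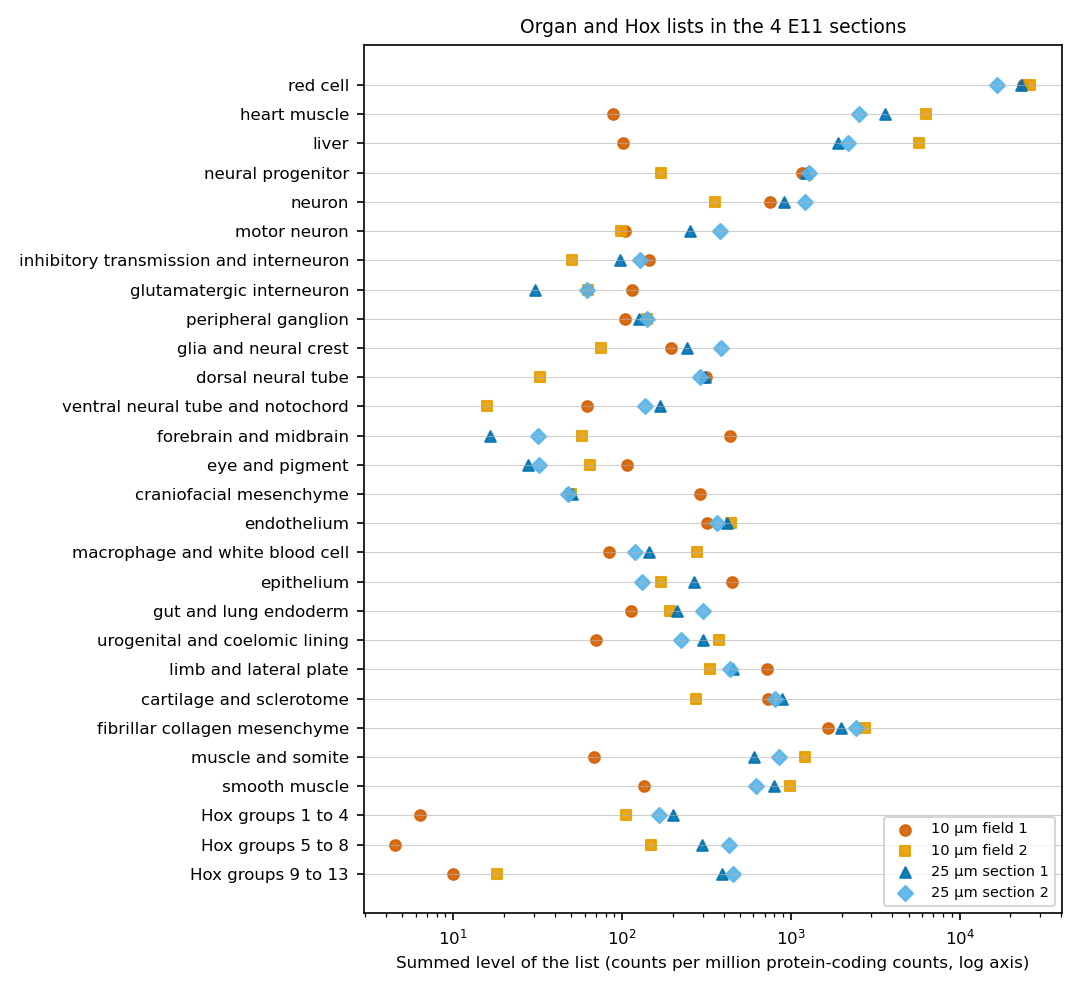
Summed level of each organ program and Hox list (CPM, log axis) in the 4 E11 sections, with 1 point per section. Heart muscle is at 88.6 CPM in field 1 and 6283 in field 2, while the 25 µm sections lie close together in most programs.

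Heart muscle, liver and smooth muscle programs were high in field 2 and low in field 1. The heart muscle list, 14 genes for the contractile apparatus and cardiac transcription factors, summed to 88.6 CPM in field 1 and 6283 in field 2, with 3590 and 2544 in the 25 µm sections. Field 2 was thus 70.9 times field 1 (61.6 to 82.1), and above both 25 µm sections, with field 1 below all 3. Myh6, the alpha cardiac myosin heavy chain, was at 7.72 CPM in field 1 and 1150 in field 2, a ratio of 149 (92.9 to 256), with 361 and 253 in the 25 µm sections. Tnnt2, cardiac troponin T, was at 17.3 and 905 CPM in the fields and 526 and 451 in the 25 µm sections. Each of the 10 heart genes that reached 100 counts over both fields was at least 2 times higher in field 2, against 5.41% of the 7063 protein-coding genes measured at that depth. A gene low in 1 field reaches 100 counts only through the other, so such counts describe these sections and are no independent evidence.

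The liver list, 16 genes mainly for secreted plasma proteins, summed to 101 CPM in field 1, 5779 in field 2, and 1907 and 2196 in the 25 µm sections. Field 2 was 57.1 times field 1 (50.0 to 65.4), and all 13 members with 100 counts were at least 2 times higher in it, against the same 5.41%. Afp, alpha-fetoprotein, was at 48.6 CPM in field 1, 3217 in field 2, 792 in 25 µm section 1 and 1253 in section 2. Alb, albumin, was at 1.82 and 201 CPM in the fields, a ratio of 111 (42.9 to 408), and at 66.4 and 93.7 in the 25 µm sections. Serpina1a, an alpha-1-antitrypsin gene with close copies that share reads, had no count in field 1 and 48.2 CPM in field 2, at least 35.4-fold higher with field 1 set at a floor of 3 counts.

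Liver and heart genes were higher together in field 2, so their promoters are shown. Short motifs were searched on both strands of the 250 bases before each gene's start (RefSeq sequences, GRCm38.p6). Of the 8 motifs, the 2 described first were picked after their matches were seen, and a full HNF1 site and an MEF2 site that were tried earlier are not reported. The half-site of HNF1, a liver-enriched homeodomain factor, is GTTAAT and was found at 5 of 14 liver genes with a sequence (Afp, Alb, Fgb, Fga and Hnf4a), 35.7%, against 7.49% of the promoters of 27025 genes. It was at 1 of 14 heart genes (Pln) and at 0 of 12 forebrain and midbrain genes with a sequence. The M-CAT motif CATTCC, bound by TEAD factors in muscle genes, was at 5 of 14 heart genes (Myh6, Myh7, Myl3, Myl7 and Tnnt2), 35.7%, against 14.4% of all promoters, at 3 of 14 liver genes and at 1 of 12 forebrain and midbrain genes. The other motifs were AGATAA (the site of Gata1 and its relatives, 3 of 14 liver genes against 11.4% of all promoters), TATAAA (the TATA box, 4 of 14 against 14.3%), CAAAGTCCA (HNF4, 0 of 14 against 0.451%), ACAATG (SOX factors, 0 of 14 against 12.2%), ATGCAAAT (the octamer, 0 of 14 against 1.81%) and TAATTA (homeodomain factors, 3 of 14 against 5.65%), which can share letters with the HNF1 half-site. At the 14 heart genes AGATAA was at 3, TATAAA and ACAATG at 4 each (28.6%), and the others at 0. A match is a run of letters and not a shown binding site. The 120 bases before the start follow, 5′ to 3′ on the gene's strand, with the motif in capitals; at Fgb it is read on the opposite strand.
Alb, chr5:90460750-90460869, plus strand: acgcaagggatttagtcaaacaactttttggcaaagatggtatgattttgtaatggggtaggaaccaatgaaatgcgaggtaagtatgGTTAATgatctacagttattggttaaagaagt
Afp, chr5:90490594-90490713, plus strand: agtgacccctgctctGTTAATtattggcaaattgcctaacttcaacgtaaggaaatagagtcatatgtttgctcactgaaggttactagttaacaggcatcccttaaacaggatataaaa
Fgb, chr3:83049864-83049983, minus strand: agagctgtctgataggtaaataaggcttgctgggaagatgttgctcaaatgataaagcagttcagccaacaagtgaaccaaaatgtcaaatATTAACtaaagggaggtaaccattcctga
Myl7, chr11:5898783-5898902, minus strand: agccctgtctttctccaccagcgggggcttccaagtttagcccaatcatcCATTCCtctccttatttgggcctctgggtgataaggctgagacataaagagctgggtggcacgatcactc
Alb and Afp lie close together on chromosome 5, and the levels of all 4 genes in field 1 were a small part of those in field 2: Fgb, a fibrinogen chain, was at 0.454 and 68.4 CPM, and Myl7, the atrial myosin light chain, at 21.3 and 1751 CPM.

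Some other programs of the trunk leaned the same way and some leaned to field 1. The limb and lateral plate list was at 722 CPM in field 1 and 331 in field 2, a ratio of 2.18 (2.00 to 2.38). It was at 454 and 435 CPM in the 25 µm sections. Cartilage and sclerotome genes, given below, were also higher in field 1. The muscle and somite list summed to 68.1 CPM in field 1 and 1218 in field 2, a ratio of 17.9 (15.2 to 21.2), with 602 and 857 in the 25 µm sections. It rested on sarcomere genes shared with the heart: Actc1, cardiac alpha actin, was at 14.1 and 982 CPM, whereas Myod1, the muscle determination factor, was at 1.36 and 1.72 CPM. Smooth muscle was at 134 CPM in field 1 and 988 in field 2, led by Acta2, smooth muscle actin, at 32.7 and 413 CPM. The urogenital and coelomic lining list was at 69.9 and 378 CPM in the fields, 5.40 times higher in field 2 (4.54 to 6.45). Its member Wt1, a transcription factor of the mesothelium and early kidney, was at 1.36 CPM in field 1 (3 counts) and 122 in field 2, a ratio of 89.3 (30.3 to 436). Gata6, a factor of endoderm and heart, was at 1.82 and 126 CPM. Macrophage and white blood cell genes summed to 84.0 and 280 CPM, 3.33 times higher in field 2 (2.82 to 3.94), and 144 and 120 in the 25 µm sections.

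Neural progenitor, dorsal neural tube, forebrain and craniofacial programs were high in field 1, while other neural programs were less far apart or leaned the other way. The neural progenitor list summed to 1167 CPM in field 1, 171 in field 2, and 1234 and 1280 in the 25 µm sections, so that field 2 stood alone, 6.83 times below field 1 (6.14 to 7.61). Pax6, a transcription factor of forebrain, eye and spinal cord progenitors, was at 224 CPM in field 1, 3.01 in field 2, and 270 and 142 in the 25 µm sections; field 1 was 74.4 times field 2 (35.8 to 186). Sox2, which keeps neural cells in a progenitor state, was at 114, 8.17, 124 and 222 CPM in the same order. Neuron genes summed to 753 CPM in field 1 and 354 in field 2, against 906 and 1207 in the 25 µm sections. Of the 9 members with 100 counts, 5 were at least 2 times higher in field 1, against 5.0% of all genes, and 1 in field 2. The ventral neural tube and notochord list was 3.91 times higher in field 1 (2.70 to 5.78), inhibitory transmission and interneuron genes 2.89 times (2.33 to 3.60) and glia and neural crest genes 2.60 times (2.18 to 3.12). The peripheral ganglion list was higher in field 2, at 104 and 140 CPM, a ratio of 1.35 (1.14 to 1.61). The dorsal neural tube list summed to 315 and 32.7 CPM in the fields and 311 and 289 in the 25 µm sections. Msx1, a gene of the dorsal neural tube that is also on the limb list, was at 176 CPM in field 1 and 6.88 in field 2, with 167 and 105 at 25 µm.

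The forebrain and midbrain program, 15 transcription factor genes, separated field 1 from all 3 other sections. It summed to 436 CPM in field 1, 58.1 in field 2, 16.4 in 25 µm section 1 and 32.0 in section 2. Otx2, required for forebrain and midbrain, was at 67.2 CPM in field 1, 0.860 in field 2 (2 counts) and listed at 0 in both 25 µm sections. Six3, a factor of the anterior forebrain and eye, was at 84.9, 3.01, 0 and 0.290 CPM. Craniofacial mesenchyme genes, which mark the tissue that builds the face, summed to 289 CPM in field 1 and 47.8 to 50.4 CPM in the others. Their member Six2 was at 49.5 CPM in field 1 and 3.87 in field 2, a ratio of 12.8 (6.49 to 28.7). Eye and pigment genes were less far apart, at 108 and 64.5 CPM in the fields and 27.8 and 32.2 in the 25 µm sections. The list was split: Pmel, a melanosome protein, was at 42.7 CPM in field 1 and 1.29 in field 2, but Cryab, a lens crystallin that is also made in heart and muscle, was at 4.996 and 58.1 CPM and was its only member with 100 counts.

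Among the remaining programs, epithelium was at 448 CPM in field 1 and 171 in field 2, and its member Epcam, an epithelial adhesion molecule, was 21.7 times higher in field 1 (10.3 to 54.99), while Krt18, a simple keratin, was at 87.2 and 78.3 CPM. Cartilage and sclerotome genes were at 733 and 274 CPM, with Col2a1, the cartilage collagen, at 417 and 88.6 CPM. Motor neuron genes were at 104 and 98.9 CPM, a ratio of 1.05 (0.868 to 1.26) whose interval holds 1. Red cell genes were nearly level at 23831 and 26207 CPM, endothelium was at 320 and 443 CPM, and fibrillar collagen mesenchyme at 1651 and 2770 CPM. Imprinted growth genes summed to 3205 CPM in field 1 and 7189 in field 2, among them Igf2, a fetal growth factor, at 343 and 1119 CPM, and Dlk1, at 237 and 780 CPM.

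Over all protein-coding genes with at least 100 counts summed over both fields, 735 of 7063 (10.4%) were at least 2 times apart in CPM. Of these, 353 (5.0%) were higher in field 1 and 382 (5.41%) in field 2. Past 4-fold were 213 genes and past 10-fold 99. No test was run between the fields, with 1 library on each side. Among the organ and Hox lists, 82 of the 113 genes measured at this depth were past 2-fold, against 32 of 249 genes on lists of general cell functions. Farthest towards field 1 were Dmrta2, at 51.8 and 0.430 CPM, and Wnt7b, at 71.8 and 0.860 CPM; Dmrta2 is a forebrain transcription factor and Wnt7b a secreted signal.

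**Figure D2:**
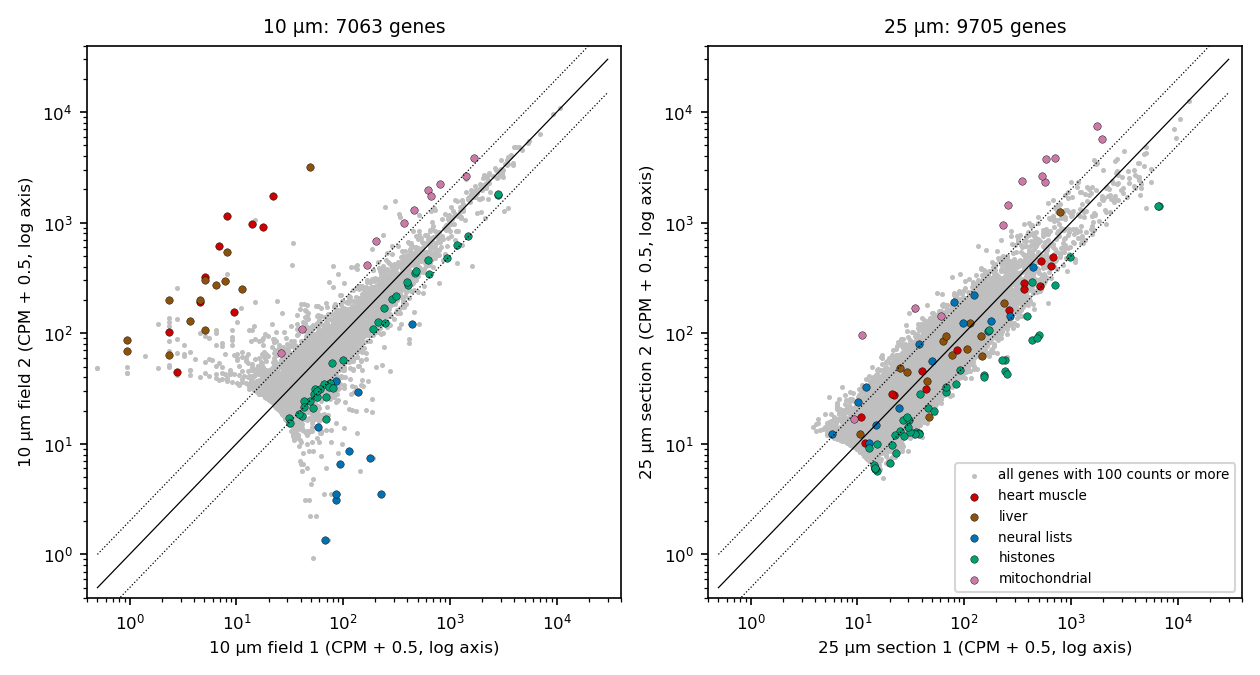
CPM (plus 0.5, log axes) of each protein-coding gene in the 2 sections of each width, with list genes coloured and dotted lines at 2-fold. The fields have 99 genes past 10-fold, among them Myh6 and Pax6 on opposite sides, and the 25 µm sections have none.

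Hox transcripts were nearly missing from field 1 and, of the high-numbered groups, from field 2. In all, 46 Hox counts were found in field 1, 632 in field 2, 4015 in 25 µm section 1 and 7242 in section 2. Of 39 Hox genes measured, 16, 9, 5 and 3 had no count in the same order. Groups 1 to 4 summed to 6.36 CPM in field 1, 105 in field 2, 201 in 25 µm section 1 and 165 in section 2. Groups 5 to 8 were at 4.54 and 148 CPM in the fields and 297 and 432 in the 25 µm sections, with field 2 at 32.7 times field 1 (17.6 to 68.8). Groups 9 to 13 were at 9.99 and 18.1 CPM in the fields and 394 and 455 in the 25 µm sections, where the fields were a factor of 1.81 apart (1.05 to 3.18). Hoxa5, of the neck and upper trunk level, was at 1.82 CPM in field 1, 49.0 in field 2, and 37.3 and 87.4 at 25 µm, so field 2 lay within the 25 µm range. Hoxb9 was at 0 and 4.30 CPM in the fields and at 111 and 161 in the 25 µm sections, so both fields lay below them. Neighbouring Hox genes and their antisense transcripts overlap and the use of strand in counting is not given in the sources used here, so reads cannot be assigned between such partners with certainty.

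**Figure D3:**
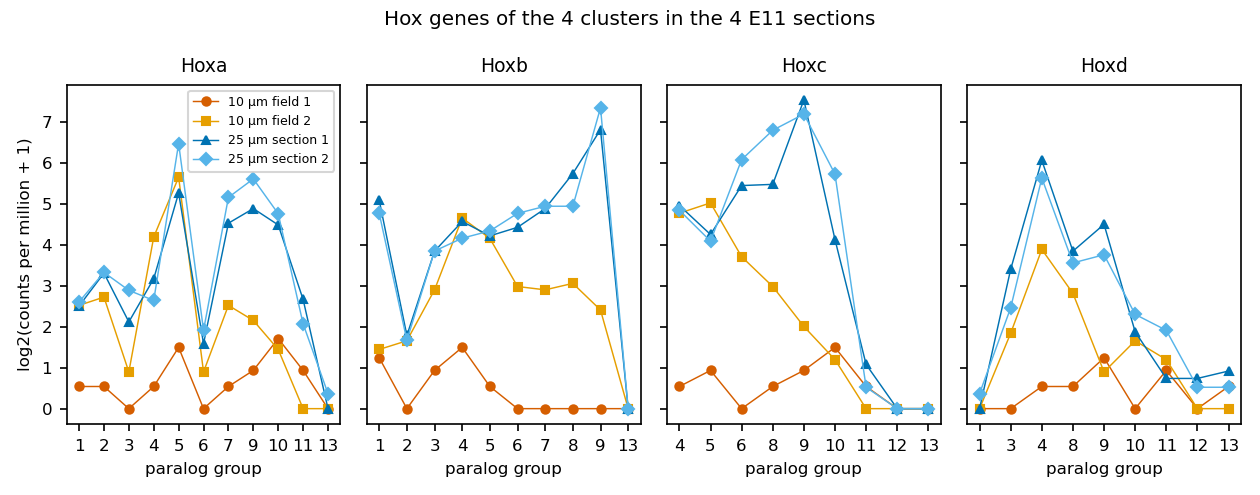
Level of each measured Hox gene, as log2(CPM + 1), in the 4 E11 sections, ordered by group number. Field 1 is near 0 throughout, field 2 carries mainly groups 4 to 8 and little of groups 9 to 13, and both 25 µm sections carry groups up to 10.

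Between the widths, few genes passed the test. Counts per section were compared with edgeR's quasi-likelihood test, fitted to all 11 transcript libraries so that the spread was shared, with Benjamini-Hochberg adjustment over 14576 genes. It called 15 genes at 0.05 (0.103%): 14 (0.0960%) were lower and 1 (0.00686%) was higher in the 10 µm fields. At an unadjusted p under 0.05 there were 991 genes. The 10 µm sections lay wholly above both 25 µm sections in 18.3% of genes and wholly below in 12.0%. The count hung on single libraries: 114 genes were called without field 1, 82 without field 2, none without 25 µm section 1 and 2 without 25 µm section 2. Of the 14 lower genes, 5 were on a list: Hoxc9, Hoxb1, Hoxa10, Glra1 of the inhibitory transmission list and Myh3 of the muscle list.

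The lower Hox genes were Hoxc9, Hoxb1 and Hoxa10, and each was low in both fields. Hoxc9 (ENSMUSG00000036139, chromosome 15, 102976439 to 102985099, plus strand, GENCODE M21 on GRCm38), a gene of the thoracic level, was at 0.908 and 3.01 CPM in the fields and 184 and 145 in the 25 µm sections. That is 1.96 ± 1.49 against 164 ± 27.8 CPM (SD, n = 2 each), a log2 fold change of -6.44 ± 0.54 (SE, edgeR adjusted p = 0.00132). Hoxb1, the hindbrain segment gene that is also active at the tail end, was at 1.36, 1.72, 32.9 and 26.1 CPM in the same order, a log2 fold change of -4.32 (adjusted p = 0.0267). Hoxa10, of the lumbar level, was at 2.27, 1.72, 21.3 and 26 CPM, a log2 fold change of -3.64 (adjusted p = 0.0402). Of the tested Hox genes, 8 of 11 in groups 1 to 4, 9 of 11 in groups 5 to 8 and 8 of 13 in groups 9 to 13 lay below both 25 µm sections in both fields, against 12.0% of all genes. The median log2 fold changes were -1.61, -2.80 and -3.28, against 0.0031 over all genes tested.

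Glra1 was the 1 called gene on a neural list; the neuron, neural progenitor, and dorsal and ventral neural tube lists had none. Glra1 (ENSMUSG00000000263, chromosome 11, 55514238 to 55608198, minus strand), the glycine receptor alpha 1 subunit of inhibitory synapses, had no count in either field and was at 38.0 and 56.1 CPM in the 25 µm sections. It was at least 73.8-fold lower at 10 µm, with both fields set together at a floor of 3 counts (adjusted p = 0.00676). The following called genes are on no list. Slc1a2, a glutamate transporter, was at 9.54 and 3.44 CPM in the fields and 33.8 and 40.2 at 25 µm (log2 fold change -2.60, adjusted p = 0.0300). Draxin, a secreted axon guidance protein, was at 15.4 and 12.1 CPM against 82.4 and 49.1 (-2.35, adjusted p = 0.0402). Ndnf, a secreted protein of neurons, was at 13.2 and 4.30 CPM against 45.3 and 68.7, and Scube2, a secreted protein that helps release Hedgehog ligands, at 2.27 and 1.72 against 91.1 and 67.7 (-5.39 ± 0.51 SE, adjusted p = 0.00132). Kbtbd11 was at 9.99 and 3.01 CPM against 84.2 and 89.6, and Phyhipl at 4.54 and 0.860 against 27.1 and 33.8.

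In the 25 µm sections some of the called genes were richer where neural progenitor genes were, and others were poorer. Values are given here for part of the called genes only, so they do not describe the called genes as a set. Within the 10% of pixels with the highest neural progenitor score, Glra1 was 4.45 and 4.30 times its level in the rest, in sections 1 and 2. Kbtbd11 was 3.12 and 5.97 times as high there, Ndnf 4.42 and 3.20 times, and Hoxc9 2.40 and 1.93 times. Car3 was 0.183 and 0.216 times as high and Hoxa10 0.754 and 0.299 times, so these 2 were poorer there. These values are descriptions of 2 sections, and pixels of a section are not replicates.

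The other called genes had other roles. Car3, a carbonic anhydrase of muscle and fat, was at 1.82 and 4.73 CPM in the fields and 117 and 74.8 at 25 µm (log2 fold change -4.93 ± 0.57 SE, adjusted p = 0.00676). Myh3, the embryonic skeletal myosin, had 2 counts in all at 10 µm and 27.6 and 18.2 CPM at 25 µm; the pooled level at 25 µm was 49.5 times higher (13.6 to 411, adjusted p = 0.0169). Tppp3, a tubulin-binding protein, was at 14.1 and 7.74 CPM against 101 and 70.6, and Fhdc1, a formin of the cytoskeleton, at 1.36 and 1.29 against 13.1 and 16.6. Gm6525, a predicted gene of unknown role, was the 1 gene higher at 10 µm, with 18.6 and 17.6 CPM against 0.667 and 1.60 (log2 fold change 3.85, adjusted p = 0.0402), and is named after its value was seen because it was alone. Of 15 alternative analyses each gene kept its sign in all and its call in 10 to 14, with Hoxc9 and Scube2 at 14 and Gm6525 and Hoxa10 at 10.

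**Figure D4:**
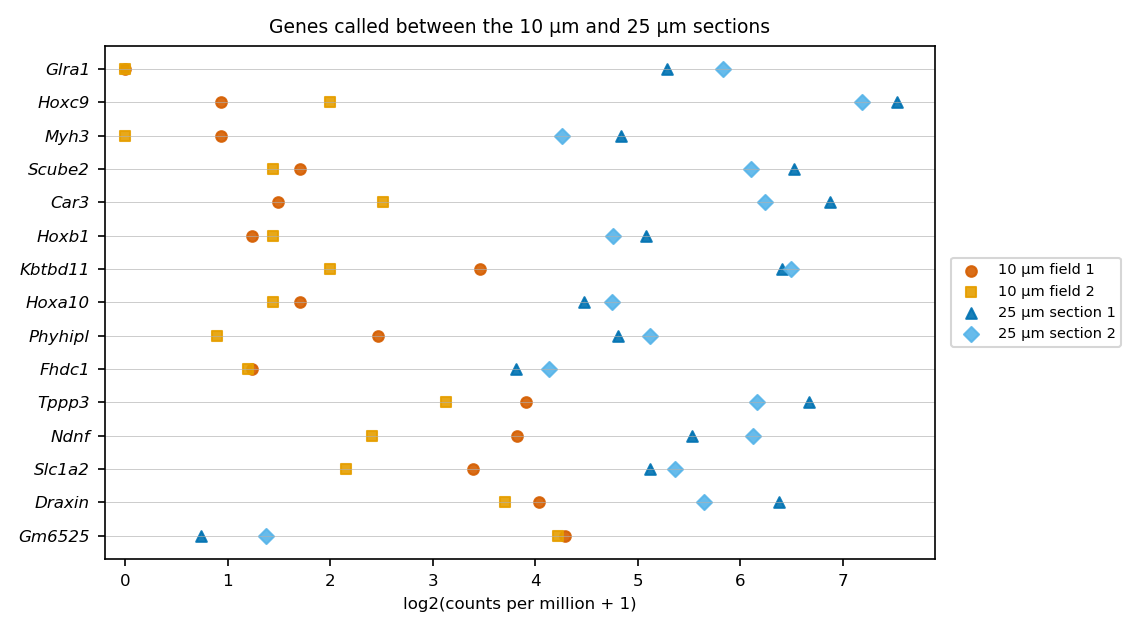
Level of the 15 called genes, as log2(CPM + 1), in each of the 4 sections. For 14 genes both fields lie below both 25 µm sections and for Gm6525 above them.

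No organ program outside the Hox lists had more than 1 called member between the widths, although the sums of some lay apart. Sums were lower in both fields than in both 25 µm sections for 7 of the 25 programs, higher for 4 and overlapping for 14. Of all genes, 18.3% lay above both 25 µm sections in both fields and 12.0% below. Some programs were apart by little. Glutamatergic interneuron genes were at 115 and 63.2 CPM in the fields and 30.7 and 62.5 at 25 µm. Red cell genes were at 23831 and 26207 CPM against 23229.5 and 16734. Neural progenitor genes were only narrowly lower in field 1, at 1167 CPM against 1234 and 1280. Of their 10 members 2 were lower in both fields, against 12.0% of all genes. The lower programs were neural progenitor, neuron, motor neuron, glia and neural crest, ventral neural tube and notochord, gut and lung endoderm, and cartilage and sclerotome. Lower in both fields were 8 of 9 tested motor neuron, 3 of 10 glia and neural crest, 4 of 9 gut and 6 of 13 cartilage genes. On the motor neuron and the glia lists 1 gene each was higher in both fields. The ventral neural tube and notochord list was at 62.2 and 15.9 CPM in the fields and 168 and 136 at 25 µm, and 6 of its 9 tested genes were lower in both fields, against 12.0% of all genes. Its member T, or Brachyury, a notochord and tail bud factor, was at 1.82 and 0.430 CPM against 21.3 and 15.4 but missed the threshold (adjusted p = 0.0575). Neuron genes had 11 of 15 members lower in both fields, against the same 12.0%, and a median log2 fold change of -1.15. The higher programs were red cell, glutamatergic interneuron, forebrain and midbrain, and eye and pigment, and none of their members was called. Above both 25 µm sections were 6 of 15 forebrain and midbrain and 5 of 13 red cell members, against 18.3% of all genes. Nearer that share were glutamatergic interneuron, with 2 of 10 members, and eye and pigment, with 2 of 9 tested. Glutamatergic interneuron genes had a median log2 fold change of 0.025 and share Lhx2 with the forebrain and midbrain list.

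Taken 1 at a time, each field gave more calls than both together. Each field alone was set against the same 2 25 µm sections, so the 2 comparisons share their controls and are given side by side. A single field shows no spread of its own, so the fit took its spread to be that of the remaining groups. This leaves out the difference between the fields, whose log2 SD was 1.30, against 0.71 between the 25 µm sections. The numbers of calls and the adjusted p-values below may therefore overstate the certainty. How far the larger numbers come from the fit was not tested. Field 1 alone called 82 of 14503 genes (0.565%), 36 (0.248%) higher and 46 (0.317%) lower. Field 2 alone called 114 of 14546 (0.784%), 21 (0.144%) higher and 93 (0.639%) lower. Median log2 fold changes over all tested genes were -0.052 and -0.032.

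Field 1 alone had higher head genes and lower liver and Hox genes than the 25 µm sections. Of the 15 forebrain and midbrain genes, 8 were higher, among them Six3 (adjusted p = 0.000113), Otx2 (adjusted p = 0.000739) and Dlx1 (adjusted p = 0.00438), a factor of inhibitory forebrain neurons at 26.3 CPM against 1.11 and 1.02. Of the 10 craniofacial genes 4 were higher, Six2, Alx1, Barx1 and Lhx8, the last of which is also a forebrain gene. Rax, a gene of the early eye field, was at 8.63 CPM against 0.222 and 0 (adjusted p = 0.0107). Lower were 9 of 16 liver genes, with a list median of -4.67 on the log2 scale, or -4.32 with genes without counts set at the floor. Apoa2, an apolipoprotein, was at 7.72 CPM against 236 and 189 (adjusted p = 0.0044). Heart muscle had a median of -5.18 (-4.80 at the floor) but none of its 14 genes was called. Of the Hox genes 10 were lower, 3 of groups 1 to 4, 6 of groups 5 to 8 and 1, Hoxc9, of groups 9 to 13.

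Field 2 alone had lower neural genes, but not only these. Among neural lists, that of the peripheral ganglion held a higher gene, with a list median of -0.29 on the log2 scale. Lower genes also lay on the gut and lung endoderm, cartilage, muscle, and Hox lists of groups 1 to 4 and 9 to 13. The limb list shared its lower gene, Msx1, with the dorsal neural tube list. The Hox medians were -0.73 for groups 1 to 4, -1.81 for groups 5 to 8 and -4.33 for groups 9 to 13 on the log2 scale. Of 10 neural progenitor genes 5 were lower, Sox2 (adjusted p = 0.0104), Hes5, a Notch target (adjusted p = 0.0115), Sox3 (adjusted p = 0.0333), Pax6 (adjusted p = 0.0459) and Msi1, an RNA-binding protein (adjusted p = 0.0479), with a list median of -5.10, or -4.33 at the floor. Of 15 neuron genes 3 were lower, Elavl3, Ina and Mapt, and Msx1 and Pax7 fell among the 12 dorsal neural tube genes. T also passed here (adjusted p = 0.025). Higher were Itih2, a liver secreted protein, at 303 CPM against 62.2 and 84.7 (log2 fold change 1.99, adjusted p = 0.0306), Fcer1g, an immune receptor chain, at 42.6 CPM against 9.56 and 9.30 (2.12, adjusted p = 0.0333), and Gata1, the master factor of red cells and platelets, at 35.7 CPM against 7.56 and 6.25 (2.32, adjusted p = 0.0376). Also higher were 3 genes of platelet and white cell signalling, Plek at 106 CPM against 14.4 and 27.6, Rasgrp2 at 86.9 against 20.9 and 14.8, and Fermt3 at 99.8 against 21.6 and 14.4; these 3 are not on a list and are named after their values were seen. Liver and heart medians were 1.24 and 0.82, with 1 of 16 liver genes and none of 14 heart genes called.

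The arrangement in space was measured with Moran's I, which is near 0 for a random scatter over pixels and rises as neighbouring pixels share a level; here it used log2(count per 10000 + 1) and the 4 nearest pixels. At a minimum of 0.1, 13 and 11 of 25 organ programs were arranged in fields 1 and 2, 6 of them in both, and 24 and 25 in the 25 µm sections. Thinned to 500 counts per pixel, leaving out shallower pixels, the numbers were 8 and 7 in the fields and 13 and 16 in the 25 µm sections. Heart muscle had a Moran's I of 0.118 in field 1, 0.584 in field 2, 0.656 in 25 µm section 1 and 0.724 in section 2. Neural progenitor genes had 0.264, 0.001, 0.529 and 0.572 in the same order, epithelium 0.490, 0.069, 0.335 and 0.270, and red cell genes 0.705, 0.628, 0.586 and 0.604. Red cell genes thus had a high value in all 4 sections, heart muscle passed the minimum in both fields but only narrowly in field 1, and neural progenitor genes passed it in field 1 but not in field 2. The 5 most arranged genes of field 1 were globins, led by Hbb-y at 0.542, and those of field 2 were contractile genes, led by Myh6 at 0.741.

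**Figure D5:**
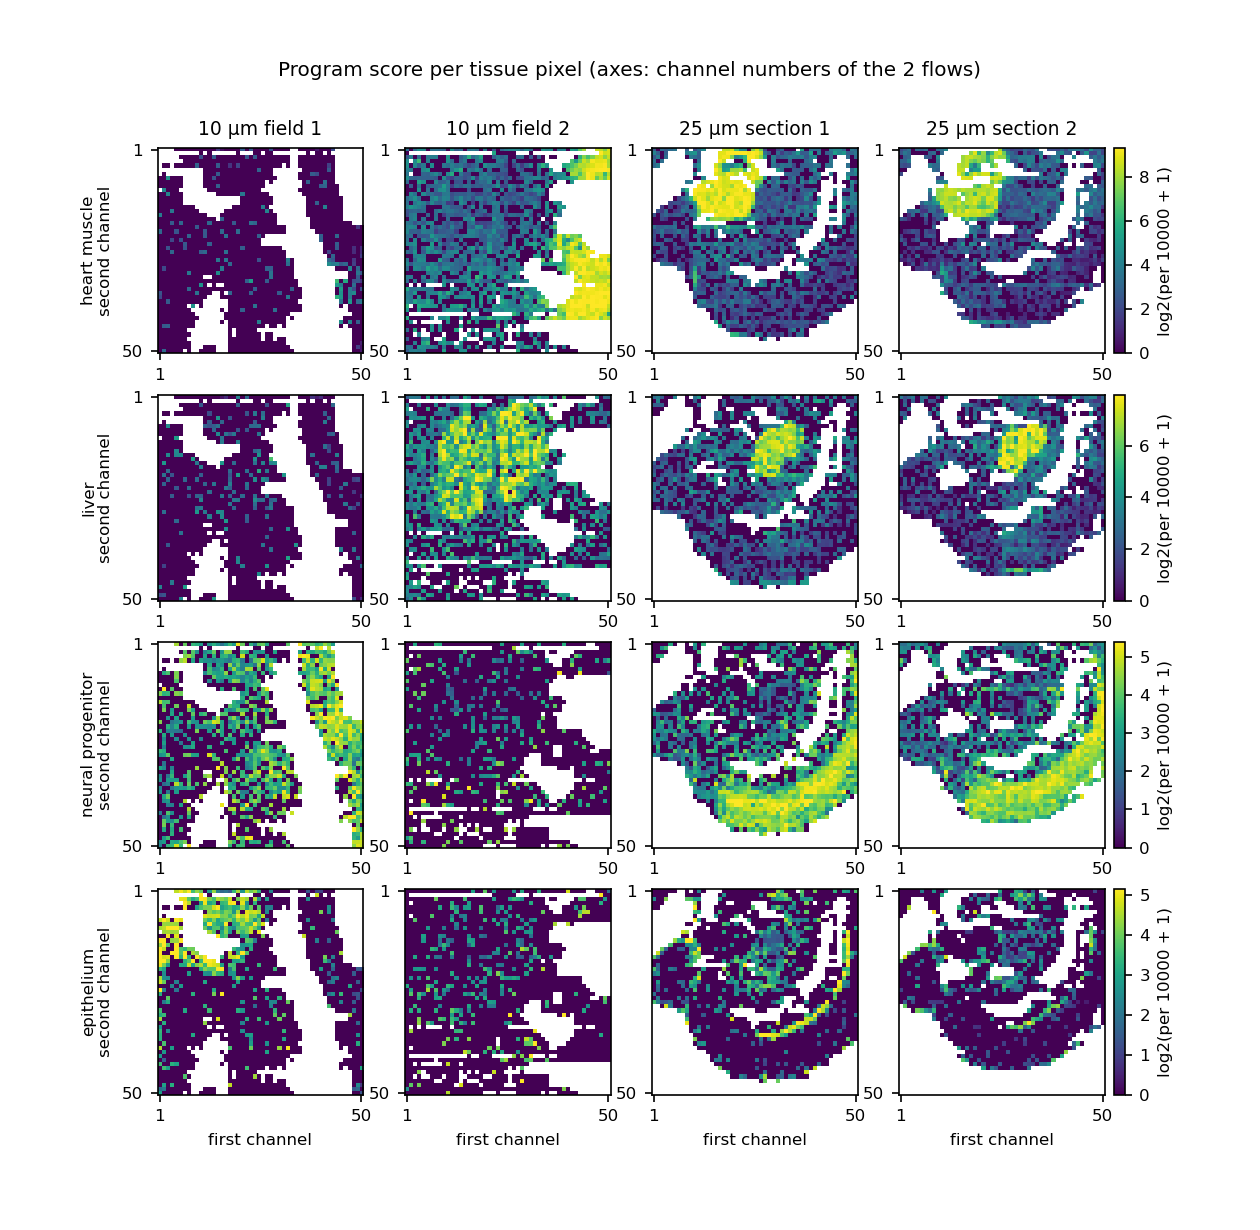
Score of organ programs in each tissue pixel of the 4 sections, against the numbers of the first and second barcode channel, with a colour scale shared within a program; white crossings are not tissue. Heart and liver form blocks in field 2 and in both 25 µm sections and are faint in field 1, where the neural progenitor score is arranged instead.

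Within field 2, transcripts of the globin Hbb-y were lower in liver pixels than elsewhere. Pixels were ranked by the liver score without the gene in question, and the top 10%, 193 pixels, was set against the rest. Afp was at 12840 CPM in the top pixels and 1378 in the rest, 9.32 times higher, against 26.4 times in 25 µm section 1 and 49.0 times in section 2. The top 10% is a fixed share, so such ratios also depend on how much of a section an organ fills. In field 2, Afp was found in 49.3% of tissue pixels, so the rest held liver transcripts too. Gata1 was 2.10 times higher in the top pixels of field 2 (24 of 83 counts) and 19.5 and 16.8 times in the 25 µm sections. Hbb-y, the embryonic beta-like globin, was 0.475 times as high in the top pixels of field 2, at 5025 and 10570 CPM, but 1.59 and 1.49 times in those of the 25 µm sections. Across pixels the liver and red cell scores had a Pearson r of -0.165 in field 2 (n = 1930), 0.016 in 25 µm section 1 (n = 1704) and 0.087 in section 2 (n = 1504); the 2 scores share each pixel's depth. With log2 pixel total the liver score had an r of 0.528 in field 2 and 0.161 and 0.084 at 25 µm, and the red cell score -0.188, -0.451 and -0.380, whose part in these values was not tested. When pixels of field 2 were ranked by the heart score, Myh6 was 38.9 times higher in the top 193 pixels, which held 76.7% of its counts. Wt1 was 0.169 times as high there. The same limit of a fixed share holds for these ratios.

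The 25 µm sections were alike in layout. Of crossings that were tissue in either section, 76.1% were tissue in both, and over these 1386 crossings the heart score had a Pearson r of 0.725 between sections, the neural progenitor score 0.544 and the liver score 0.527. The fields shared 60.6% of crossings, with r of 0.226 for heart, 0.212 for liver and 0.0228 for neural progenitor genes (n = 1345). At the same crossings the fields had r of 0.0156 for epithelium, 0.0318 for smooth muscle and 0.0858 for red cell genes. Between the 25 µm sections these were 0.208, 0.566 and 0.488. In field 1 the heart and liver lists held only 195 and 223 counts. Whether a shared outline has a part in such correlations was not tested, and the labels do not say whether 2 sections came from 1 embryo.

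The 25 µm sections were farthest apart in mitochondrial and histone genes. Of 9705 genes with 100 counts over both, 1147 (11.8%) were at least 2 times apart, 391 (4.03%) higher in section 1 and 756 (7.79%) in section 2. With TMM scaling these became 513 and 628. Past 4-fold were 32 genes and past 10-fold none. Among list genes at this depth, 30 of 183 on organ and Hox lists and 67 of 263 on the others were past 2-fold. The mitochondrially encoded genes summed to 7063 CPM in section 1 and 30982 in section 2, and the replication-dependent histone genes to 19638 and 5156 CPM. In the fields the mitochondrial genes were at 6476 and 16053 CPM and the histones at 15197 and 9243. Section 2 and field 2 were thus the mitochondria-rich and histone-poor sections of their widths. Farthest apart at 25 µm were mt-Atp8, a subunit of the mitochondrial ATP synthase, at 10.4 and 96.3 CPM, a ratio of 9.22 (6.85 to 12.7), and Hist1h2ah, a histone gene with near-identical copies, at 249 and 42.0 CPM. Hoxc10, at 16.4 and 51.7 CPM, was the farthest of the Hox genes past 2-fold. Without red cell, ribosomal protein, mitochondrial and histone genes in the fit, the same 15 genes were called between the widths.

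Cell cycle and ribosomal protein genes differed little between the fields. The sum of the S and G2/M phase list was 1.19 times higher in field 1 (1.16 to 1.22). That of ribosomal protein genes was 1.05 times higher in field 2 (1.046 to 1.055). The S and G2/M phase list was at 5622 and 4739 CPM in the fields and 4533 and 5661 at 25 µm, and none of its 21 genes was 2 times apart between the fields or called between the widths. Mki67, a marker of cycling cells, was at 813 and 672 CPM in the fields and 767 and 971 at 25 µm. None of the 80 ribosomal protein genes with 100 counts was 2 times apart between the fields, against 10.4% of all genes. Between the 25 µm sections 2 of 21 cell cycle genes and 7 of 80 ribosomal protein genes were, against 11.8% of all genes. Of the 4 genes on the Y chromosome looked at, Eif2s3y, Kdm5d and Uty had no count in any section and Ddx3y had 1 count, in field 2.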

How the data were processed

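The authors deposited 1 table of counts per library, with genes against barcoded pixels and no normalization; a further deposited table placed each barcode on the grid. Per the labels' protocols, library preparation used Nextera XT and sequencing a HiSeq. The submitters' processing notes name CASAVA 1.8.2 and GRCh38, with no role given for either; the aligner, annotation, strand, duplicate removal and pixel filters are not given in the sources used here. Gene types and positions came from GENCODE M21 (GRCm38), used for these only. Of 30534 features, 18502 were protein-coding.

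Counts of tissue pixels were summed per library and tested with edgeR 4.0.16 (limma 3.58.1, R 4.3.3; DESeq2 1.42.0 as an alternative): TMM factors, default low-count filter, 6 groups of stage and width, 5 residual degrees of freedom, two-sided p-values. The test was tested on simulated data. No 2 libraries agreed within sampling noise (chi-square over degrees of freedom 20.4 to 64.05). Ratios between 2 sections used CPM and genes with 100 counts. Other steps used Python 3.11.15.

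Genes named are called list genes, up to 10 called genes per direction with the largest fold change, the up to 3 most abundant members of each list, the up to 10 genes farthest apart in each pair of sections, list members past 2-fold there, the 5 genes with the highest Moran's I, and sex-linked genes; 1 gene that these rules select is not reported here, others are marked, or are called genes and list genes of the comparisons with 1 field. Members, lists and tests were chosen with earlier results of these data known, and lists share some genes. Alternatives covered normalization, filters, tissue minimum, depth, replicate block and leaving out each library.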

Additional observations from a re-analysis of the deposited data

How the results depend on the processing

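The number of genes called between the widths, 15, was unstable: it was 114 with DESeq2, 29 without the low-count filter, 8 in a fit to the 4 E11 libraries only and 378 when all features, pseudogenes included, were tested. Leaving out 1 library gave 0 to 114. The count of 0 came from edgeR without 25 µm section 1, where 1464 genes had an unadjusted p under 0.05. It stayed at 14 to 17 with RLE factors, without red cell, ribosomal, mitochondrial and histone genes, at other tissue minimums and at equal depth. Over the 15 called genes and all alternatives, 179 calls held and 46 were lost, with no change of sign. The replicate numbers were not taken to pair the sections: differences between same-numbered sections correlated at 0.051 over tested genes and 0.156 over genes above an average log2 CPM of 5, with only 2 pairs. A fit with the number as a block called 11 genes, 9 of them among the 15. The 735 genes apart between the fields became 1285 at a minimum of 50 counts and 360 at 200 counts. Of the ratios of organ programs between the fields, 97 stayed within their interval and 3 moved. The 6 programs arranged in both fields fell to 3 with 8 neighbours and to 3 with pixels thinned to 500 counts. Depth limits the fields most: they held 2201692 and 2324507 protein-coding counts, so a gene absent there is not detectable at this depth.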
